A study of Mus musculus with 34 samples.

Results

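The regions described here were distal CTCF and cohesin sites without H3K27ac at which no CTCF peak was called after Ctcf deletion in mouse bone marrow-derived dendritic cells (BMDCs). A site was a CTCF peak of unstimulated control cells that shared no base with a CTCF peak of unstimulated knockout cells, lay more than 2.5 kb from the start of every annotated gene, overlapped a peak of the cohesin subunit SMC1 in the same control cells and overlapped no H3K27ac peak there. Of the 60537 CTCF peaks, 46166 had no knockout CTCF peak, 37857 of those were distal, 15853 of those had SMC1, and 13732 of those lacked H3K27ac, which is 22.7% of the list. The values that chose the sites were thus the CTCF calls of both genotypes and the SMC1 and H3K27ac calls of unstimulated control cells, and they are given only as description.

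BMDCs were grown from bone marrow of C57BL/6 mice, labelled 8 weeks old, over 6 days in GM-CSF, a myeloid growth factor, and CD11c+ cells were selected with magnetic beads. Control cells (CTCF-WT) carried the CreER recombinase alone and knockout cells (CTCF-KO) were CreER;CTCFfl/fl, and both received 4-OH tamoxifen on the first day of culture to start recombination. Cells were left unstimulated (WT, KO) or given LPS, a bacterial ligand of the receptor TLR4, at 100 ng/ml for 3 h (WTLPS, KOLPS), and STAT5 was assayed after renewed GM-CSF for 15 min without LPS. ChIP-seq gave 30 peak lists, 1 for each antibody and condition, so no spread between replicates can be given and no test between conditions was run. All groups shared CreER and tamoxifen, the recombinase gene sits at Rosa26, a locus active in most cell types, GM-CSF cultures are mixed, and a peak list does not measure how many cells had deleted Ctcf. An H3K4me3 peak lay at the promoters of all 10 dendritic and myeloid marker genes examined (among them Itgax, Cd74, Spi1 and Csf2rb) in every condition. Of 10 markers of other cell types, Neurod1, Epcam and Col1a1 had one in every condition and Cdh5 in WT only, and the part of other cells in the results was not tested.

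CTCF binds DNA through its zinc fingers and halts cohesin, the ring-shaped complex that extrudes chromatin loops, so that cohesin gathers at CTCF sites, many of which act as loop anchors or boundaries. H3K4me1 marks enhancers, with or without activity, and H3K27ac marks active ones. H3K27me3 is laid down by Polycomb repressive complex 2 over silent developmental genes in broad domains, whose edges can lie at CTCF sites.

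Sequence is shown to let the core of a lost site be compared with that of a kept one, and a match is a description of the letters only. The CTCF core consensus, a pattern of 14 positions searched on both strands, lay within 50 bp of the CTCF summit with at most 1 mismatch at 3275 sites. The sites of highest CTCF significance were named, and the core is shown for the 2 of the first 5 that held one, from GRCm38 (mm10). The site in an intron of Chl1 is at chr6:103739455-103739514 (plus strand), and the site near Pkia is at chr3:7332133-7332192 (plus strand). To show full matches, the 3 sites of highest significance among those without a mismatch were added after their values were seen. They lie near Grpel1 (chr5:36459082-36459141, plus strand), in an intron of Rtn3 (chr19:7436435-7436494, minus strand) and near Sybu (chr15:44836364-44836423, plus strand). The Pkia and Grpel1 sites had a CTCF peak in KOLPS, and lost here refers to unstimulated KO. Capitals mark the core, written in its own direction.
Chl1 site: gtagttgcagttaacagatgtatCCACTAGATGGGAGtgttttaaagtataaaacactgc
Pkia site: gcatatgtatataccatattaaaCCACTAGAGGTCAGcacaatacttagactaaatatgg
Grpel1 site: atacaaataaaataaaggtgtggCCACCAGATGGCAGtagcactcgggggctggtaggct
Rtn3 site: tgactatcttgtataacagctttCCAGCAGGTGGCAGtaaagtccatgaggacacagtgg
Sybu site: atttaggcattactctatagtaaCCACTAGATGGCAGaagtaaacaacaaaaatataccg

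For comparison, the 3 full matches of highest CTCF significance among peaks still called in KO, also chosen after their values were seen, are named by the nearest coding start. These were Gm15319 (chr8:20424845-20424904, minus strand), Srgap1 (chr10:122051975-122052034, minus strand) and Klhl31 (chr9:77596505-77596564, plus strand). The first lay in an exon of 2610005L07Rik, 61239 bp from the Gm15319 start, and had H3K27ac in every condition.
Gm15319 peak: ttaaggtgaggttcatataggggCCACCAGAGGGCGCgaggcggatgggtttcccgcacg
Srgap1 peak: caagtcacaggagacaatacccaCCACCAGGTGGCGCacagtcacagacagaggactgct
Klhl31 peak: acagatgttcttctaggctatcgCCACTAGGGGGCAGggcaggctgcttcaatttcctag

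The core occurred at 23.8% of the sites (95% Wilson interval 23.1 to 24.6%, which like all intervals here covers counting error only). In windows of the same length 1 kb to either side it occurred at 0.277%, and over all WT CTCF peaks at 22.3% (21.98 to 22.6%), near the share of the sites. CTCF peaks still called in KO held it more often, at 44.6% (43.8 to 45.4%), and distal lost CTCF peaks that had neither SMC1 nor H3K27ac less often, at 10.96% (10.5 to 11.4%). Lost distal peaks with H3K27ac stood at 11.6% (10.5 to 12.8%). The intervals of the sites and of each of these sets did not overlap. Within the sites, the share rose with CTCF significance, from 9.22% of the 4577 weakest through 24.0% of the 4577 in the middle to 38.3% of the 4578 strongest. A full match was found at 4.43% of the sites and at 5.81% of all WT CTCF peaks. With at most 2 mismatches the core was found at 54.8% of the sites and at 2.77% of the windows 1 kb away.

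**Figure D1:**
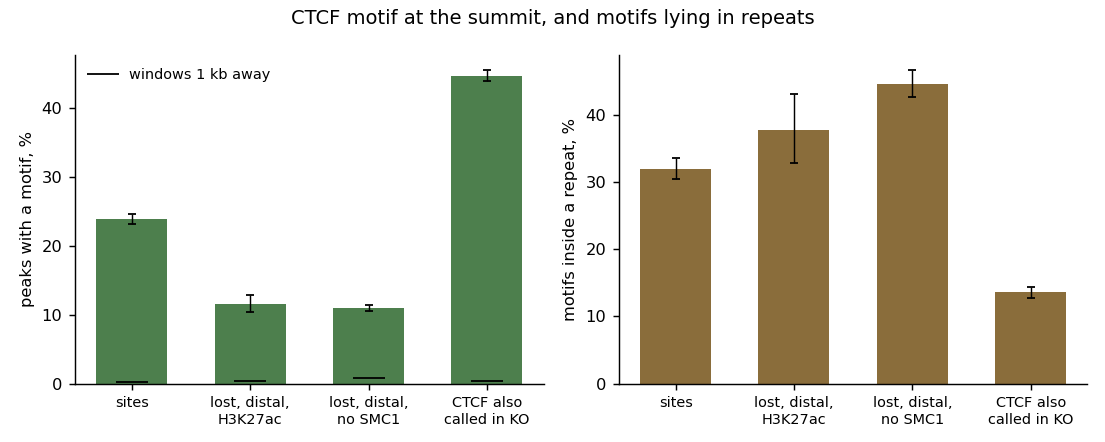
Left, percent of CTCF peaks with the core consensus (at most 1 mismatch) within 50 bp of the summit, with 95% Wilson intervals, and a dash for windows 1 kb away. Right, percent of those cores that lie inside a soft-masked repeat. The sites (23.8% with a core, 32.0% of cores in repeats) lie between lost distal peaks without SMC1 and peaks still called in KO in both panels.

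Many cores lay in repeats, which in the reference sequence are written in lower case. Of the 3275 cores at the sites, 1048 were inside a repeat (32.0%, 30.4 to 33.6%), against 13.6% (12.8 to 14.4%) at peaks still called in KO and 44.6% (42.6 to 46.6%) at lost distal peaks without SMC1 or H3K27ac. The base 3 positions before the core, which the search did not use, was T at 33.6% of site cores (32.0 to 35.3%) and at 45.5% (44.2 to 46.7%) of cores of peaks still called in KO. Outside repeats the values were 43.5% (41.4 to 45.5%) and 49.3% (48.0 to 50.6%), so the gap was smaller there but the intervals did not overlap. Of 3255 pairs of neighbouring cores along a chromosome, 25.9% faced each other (24.4 to 27.4%), 48.0% pointed the same way (46.3 to 49.7%) and 26.1% faced away (24.6 to 27.6%). Among consecutive cores on a chromosome, facing and outward pairs must alternate. Their near-equal counts are therefore fixed by the way of counting and are no result.

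The sites were of middling CTCF strength. Their median fold enrichment over local background was 8.65 (10th to 90th percentile 4.60 to 16.7, highest 36.9), at the 59.6th percentile of the whole list by median. Peaks still called in KO had a median of 20.5, and lost distal peaks without SMC1 or H3K27ac one of 4.64. The median width was 737 bp, against 662 bp over all CTCF peaks. A wide peak is more easily overlapped, so shares of overlap are compared below with positions at the summit.

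The site closest to a KO CTCF peak was 51 bp from one and 7 sites lay within 250 bp of one, while the CTCF peak left out on the least overlap shared 16 bp with a KO peak. The median distance from a site to a KO CTCF peak was 29485 bp. Distances to the nearest gene start ran from 2501 to 658786 bp (median 15406.5 bp), and the nearest peak left out as promoter lay at 2500 bp. The CTCF library had a coverage of 3.74 fragments per background base in WT and 2.95 in KO, and its part in the calls that define a lost site was not tested.

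Introns held 48.3% of the sites, the space outside genes 36.7% and exons 15.0% (14.4 to 15.6%). Over all WT CTCF peaks, of which 20.3% were at promoters, the values were 37.0, 31.8 and 10.9%. The exon share was 14.6% (13.997 to 15.2%) at peaks still called in KO. Of those, 27.7% were at promoters and not counted as exon, so this share cannot be compared with that of the sites. The exon share was 10.05% (9.65 to 10.5%) at lost distal peaks without SMC1 or H3K27ac, which like the sites exclude promoters. Every chromosome carried sites, with a median of 67070 bp between neighbours. The X chromosome held 379, and 30.4% of its CTCF peaks were sites, against 20.3 to 24.9% on the autosomes. The Y chromosome held 2.

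CTCF itself was largely called again under LPS. Of the sites, 12433 (90.5%, 90.04 to 91.0%) had a WTLPS CTCF peak, against 79.4% of all WT CTCF peaks. In KOLPS 255 sites (1.86%, 1.64 to 2.10%) had a CTCF peak, against 15.6% of all peaks. Those 255 were unevenly spread over strength, at 4.54% of the strongest 4578 sites and 0.677% of the weakest 4577. The rule did not use the KOLPS list, but it took out peaks still called in KO, of which 62.5% had a KOLPS CTCF peak. The share below that of all peaks is thus partly set by the rule. Other lost distal peaks had a KOLPS CTCF peak less often than the sites. The counts were 28 of 2903 with H3K27ac and 53 of 21222 without SMC1 or H3K27ac. Among all WT CTCF peaks, the shares of the calls used by the rule were 23.7% for KO CTCF, 54.3% for WT SMC1 and 12.4% for WT H3K27ac.

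SMC1 was rarely called at the sites in CTCF-KO cells. In WTLPS 10876 sites had an SMC1 peak (79.2%, 78.5 to 79.9%), against 51.1% of all WT CTCF peaks. In KO 579 sites had one (4.22%, 3.89 to 4.57%), against 9.38% of all peaks, and in KOLPS 264 (1.92%, 1.71 to 2.17%), against 5.69%. Both KO shares were below those of all CTCF peaks. That list includes peaks the rule took out, such as those still called in KO, of which 23.9% had KO SMC1. The lower shares are thus partly set by the rule. At lost distal peaks, chosen for having neither SMC1 nor H3K27ac in WT, the shares were 0.702% in KO and 0.221% in KOLPS. In a culture of many cells, fewer cells with SMC1 at a site and less SMC1 per cell cannot be told apart. At 10328 sites (75.2%) SMC1 was called in WT and WTLPS and in neither KO list, and at 191 in all 4 conditions.

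Since a WT SMC1 peak was required, the WT value of 100% is no measurement, and the step from WT to WTLPS cannot be read as an effect of LPS. The same rule applied to the LPS lists (WTLPS CTCF, KOLPS CTCF, WTLPS SMC1 and WTLPS H3K27ac) gave 14740 sites, of which 89.5% had SMC1 in WT (against 58.1% of all WTLPS CTCF peaks), 4.46% in KO (9.54%) and 1.84% in KOLPS (5.83%). The SMC1 libraries had coverages of 5.40 (WT), 5.76 (WTLPS), 5.34 (KO) and 4.49 (KOLPS). A calculated thinning of the WTLPS list to the KOLPS coverage gave SMC1 at 71.5% of the 13732 sites, against 1.92% in KOLPS. The part of coverage in the shares was not tested on reads.

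The sites differed in their SMC1 calls from other distal SMC1 peaks. At 10701 distal WT SMC1 peaks with no WT CTCF and no H3K27ac, an SMC1 peak was called in KO at 36.3% (35.4 to 37.2%) and in KOLPS at 17.6% (16.9 to 18.4%), while in WTLPS the share was 45.2%, below that of the sites. The order was thus turned between the genotypes, the CTCF sites having more SMC1 calls in WTLPS and fewer in KO. At lost distal CTCF sites with H3K27ac, SMC1 was called at 26.5% in KO and 15.98% in KOLPS. These sets differ from the sites in CTCF strength and in marks.

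**Figure D2:**
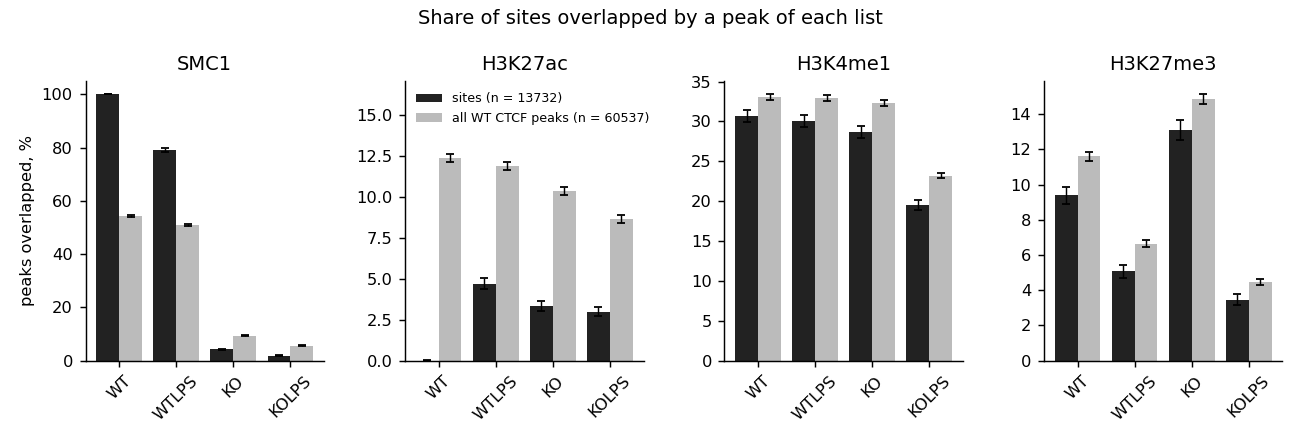
Percent of the 13732 sites (black) and of all 60537 WT CTCF peaks (grey) that overlap an SMC1, H3K27ac, H3K4me1 or H3K27me3 peak in each condition, with 95% Wilson intervals and a separate axis for each mark. The WT values of SMC1 (100%) and H3K27ac (0%) at the sites are set by the rule, and SMC1 falls to 4.22% in KO and 1.92% in KOLPS.

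Within the sites, CTCF strength and SMC1 went together in control cells and in opposite directions in knockout cells. From the weakest through the middle to the strongest CTCF sites, the share with a WTLPS SMC1 peak rose from 60.6% through 83.5% to 93.6%. The share with a KO SMC1 peak fell from 7.49% (6.77 to 8.29%) through 3.32% (2.84 to 3.88%) to 1.83% (1.49 to 2.27%), and that in KOLPS from 3.47% through 1.42% to 0.874%. The rule took out peaks still called in KO, of which 23.9% had KO SMC1. Their median CTCF strength was at the 87.0th percentile of the list, so the fall describes the sites only. WT H3K4me1 was also commoner at the weakest sites than at the strongest (39.1% against 24.2%), and its part in the fall was not tested.

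The 579 sites with a KO SMC1 peak carried other marks than the rest. H3K4me1 was called in WT at 79.3% of them (75.8 to 82.4%) and at 28.6% (27.8 to 29.3%) of the 13153 others. An H3K27ac peak in KO lay at 21.2% (18.1 to 24.8%) against 2.56% (2.31 to 2.85%), and an H3K4me3 peak in WT at 6.74% against 2.06%. STAT5, the factor activated by GM-CSF, was called in WT at 8.29% against 0.411%, and the NF-κB subunit p65 in WTLPS at 5.01% against 0.205%. The CTCF core was less common, at 7.08% (5.26 to 9.47%) against 24.6% (23.9 to 25.3%). H3K27me3 in WT stood at 8.29% against 9.44%, with overlapping intervals, and in KO at 6.56% (4.82 to 8.88%) against 13.4%. Of the 579, 343 were among the 4577 weakest CTCF sites, where the core stood at 9.22% and WT H3K4me1 at 39.1%. The part of CTCF strength in these differences was not tested.

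Read from the other side, a KO SMC1 peak was called at 10.9% (9.98 to 11.9%) of the 4216 sites with WT H3K4me1 and at 1.26% (1.06 to 1.51%) of the 9516 without. In WTLPS the same groups had SMC1 at 79.8% and 78.9%, with overlapping intervals. The H3K4me1 split therefore separated the sites by SMC1 in KO and not by SMC1 in WTLPS.

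**Figure D3:**
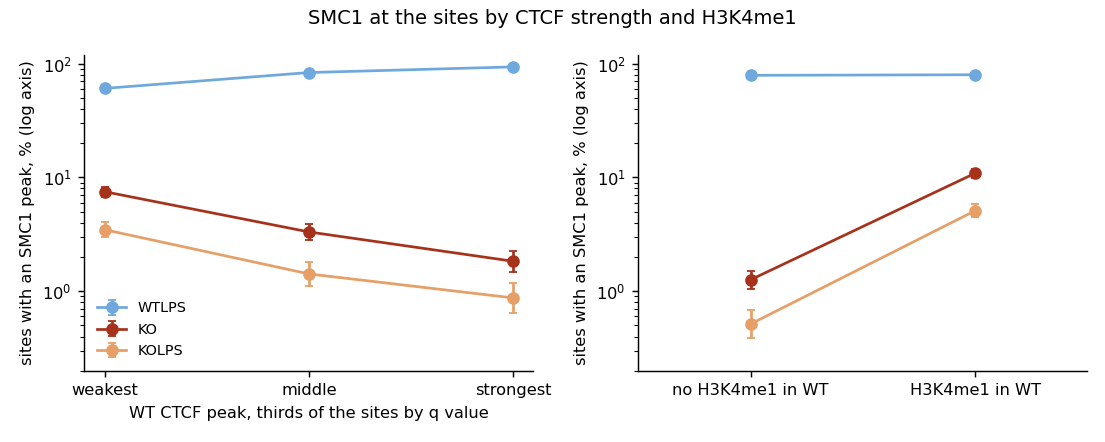
Percent of sites with an SMC1 peak (log axis) in WTLPS, KO and KOLPS, for the weakest, middle and strongest WT CTCF sites by q value (left) and by the presence of a WT H3K4me1 peak (right), with 95% Wilson intervals; lines join the groups for reading only. With CTCF strength the WTLPS share rises to 93.6% while the KO share falls to 1.83%, and sites with H3K4me1 stand at 10.9% in KO against 1.26% without.

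SMC1 summits lay farther from the CTCF summit in KO than in WT, at the sites and at other CTCF peaks. In WT 85.4% of the sites had the SMC1 summit within 100 bp of the CTCF summit (84.8 to 85.9%), and in WTLPS 85.8%. For the 579 sites with a KO SMC1 peak, the KO summit was within 100 bp at 44.7% (40.7 to 48.8%), while in WT 69.3% (65.4 to 72.9%) of those same sites had theirs that close. The median distance at those sites was 58.0 bp in WT and 119 bp in KO. The change was not limited to the sites. At CTCF peaks still called in KO that had a KO SMC1 peak, 90.8% of WT summits and 69.3% of KO summits were within 100 bp. The share was also lower in KO than in WT at lost distal peaks with H3K27ac that had a KO SMC1 peak.

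Against the core, taken in its own direction, the WT SMC1 summit lay at a median of +3 bp (quartiles −27 to 30 bp, 3263 sites) and the WTLPS summit at +2.5 bp (quartiles −28 to 33 bp, 2820 sites). In KO only 32 sites had a core and an SMC1 summit within 500 bp of it, with a median of −39 bp and quartiles of −249 and 203 bp. SMC1 summits were within 100 bp of the core at 96.4% of the 3263 sites in WT and at 28.1% (15.6 to 45.4%) of the 32 in KO. No WT value was computed for those 32 alone. A different set of sites and a different position thus cannot be told apart here. At CTCF peaks still called in KO the KO summits were closer than at the sites, with 84.0% within 100 bp (82.0 to 85.8%, 1424 peaks). In WT 98.7% of the SMC1 summits were that close, over a larger number of CTCF peaks still called in KO (6172).

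**Figure D4:**
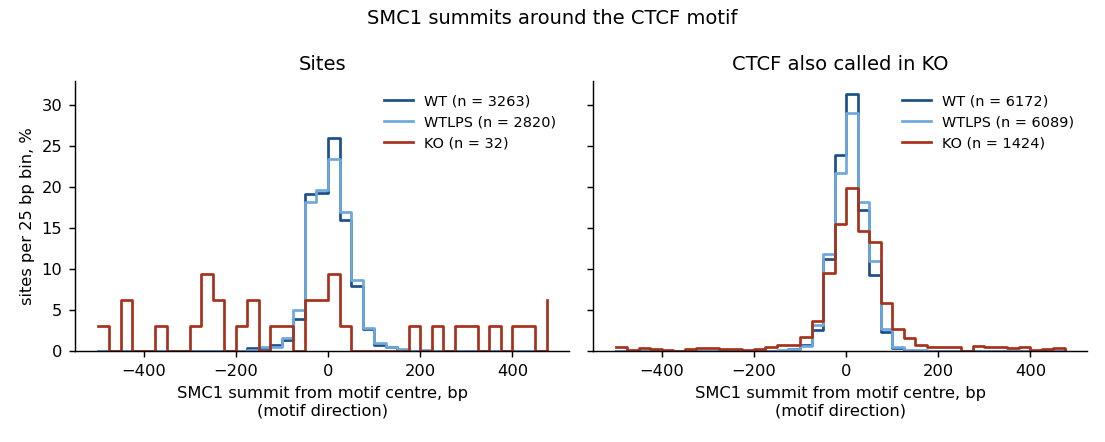
Percent of SMC1 summits in 25 bp bins of distance from the centre of the CTCF core, in the direction of the core, at the sites (left) and at CTCF peaks also called in KO (right). WT and WTLPS summits pile up within 100 bp of the core, and the 32 KO summits at the sites are spread over the whole window.

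H3K27me3 showed a local gap over the sites in CTCF-WT cells and none in CTCF-KO cells. The rule did not use H3K27me3. At the CTCF summit itself, 3.84% of the sites (3.53 to 4.17%) lay inside an H3K27me3 peak in WT, against 7.63% (7.32 to 7.95%) of positions 2 kb to either side, a ratio of 0.503. In KO the summit value was 7.22% (6.80 to 7.67%) and the flanks 7.39% (7.08 to 7.70%), a ratio of 0.978. The flanks of the 2 genotypes were thus close, and the gap at the summit was seen in WT, while in KO the intervals of summit and flanks overlapped.

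Under LPS the ratios again differed between the genotypes, but both the summit and the flanks were lower in the knockout. In WTLPS 1.82% of summits (1.61 to 2.06%) and 3.59% of flanks (3.38 to 3.82%) were inside a peak, a ratio of 0.507, and in KOLPS 1.37% (1.19 to 1.58%) and 1.18% (1.06 to 1.31%), a ratio of 1.16. The H3K27me3 lists of WT and KO were alike in size, with 96475 and 95080 peaks, while those of WTLPS and KOLPS held 65880 and 26960. With the same number of peaks from each list the ratios were 0.572 and 0.9903 for WT and KO, and 0.497 and 1.16 for WTLPS and KOLPS.

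The depth of the gap followed CTCF strength. At the 4578 strongest sites the WT ratio was 0.314 (2.67% at the summit, 8.49% in the flanks), and at the 4577 weakest it was 0.726 (4.70% and 6.47%). The KO ratios were 1.04 and 0.911. CTCF peaks still called in KO had a deeper gap in WT, with a ratio of 0.292, and in KO a summit above its flanks, with 11.2% and 9.22% and a ratio of 1.21. Lost distal peaks without SMC1 or H3K27ac had no gap in any condition, with ratios from 1.18 (KO) to 1.78 (KOLPS).

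Where both flanks of a site were inside an H3K27me3 peak, the summit was inside one more often in KO than in WT. The flanks need not lie in the same peak, and the sites counted differ between conditions. Among sites with H3K27me3 at both flanking positions, the summit was also inside a peak at 167 of 402 sites in WT (41.5%, 36.8 to 46.4%) and at 228 of 387 in KO (58.9%, 54.0 to 63.7%). In WTLPS the count was 47 of 127 (37.0%, 29.1 to 45.7%) and in KOLPS 7 of 18 (38.9%, 20.3 to 61.4%), where the interval is too wide to tell it from either. H3K4me1 had no such gap, with summit to flank ratios from 1.09 (WTLPS) to 1.24 (KOLPS).

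**Figure D5:**
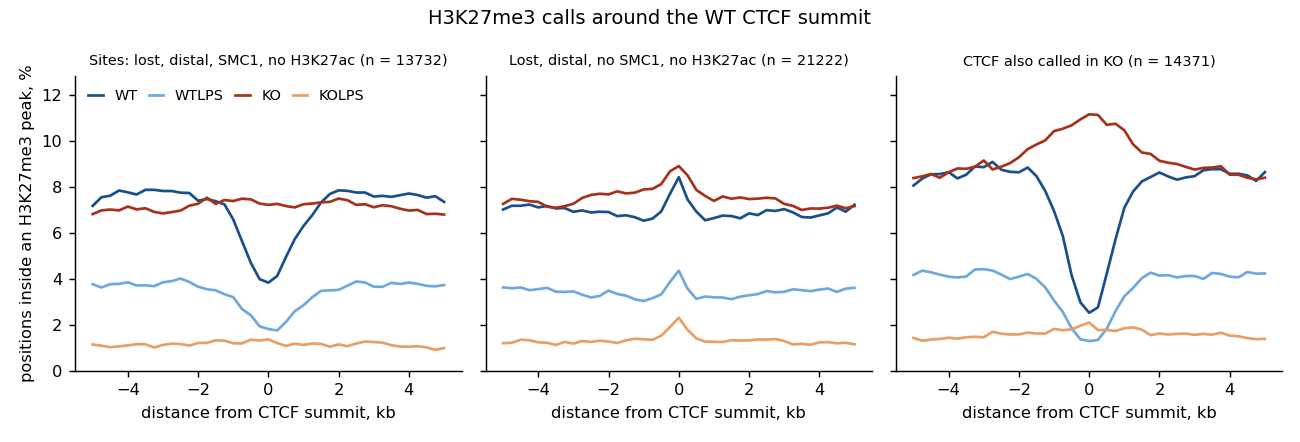
Percent of peaks whose position at a given distance from the WT CTCF summit lies inside an H3K27me3 peak, for the sites (left), lost distal peaks without SMC1 or H3K27ac (middle) and CTCF peaks also called in KO (right), with 1 line per condition. At the sites the WT and WTLPS lines dip at the summit, to 3.84% and 1.82%, and the KO and KOLPS lines do not.

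Over the whole width of the sites, H3K27me3 of WT overlapped 1290 (9.39%, 8.92 to 9.89%), that of WTLPS 697 (5.08%, 4.72 to 5.46%), that of KO 1796 (13.1%, 12.5 to 13.7%) and that of KOLPS 476 (3.47%, 3.17 to 3.79%). The shares over all WT CTCF peaks were 11.6, 6.64, 14.8 and 4.46%, so the order of the conditions was that of CTCF peaks at large and the sites lay somewhat lower in each. Between WT and KO 876 sites kept the call, 414 lost it and 920 gained it. From WT to KO the share went from 7.30% to 8.30% at the weakest sites and from 11.2% to 17.4% at the strongest. The KOLPS share was below the WTLPS share, but with the same number of peaks from each list it was above it (2.51% in WTLPS and 3.47% in KOLPS), whereas KO stayed above WT (4.02% in WT and 5.47% in KO). With a common lowest −log10 p in the 4 lists KOLPS stayed below WTLPS (4.86% in WTLPS and 3.47% in KOLPS). The direction under LPS thus differed between these ways of matching the lists.

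At the sites defined by the LPS lists, the H3K27me3 shares of WT, WTLPS, KO and KOLPS were 10.1, 5.50, 14.1 and 3.72%, against 11.7, 6.7, 15.4 and 4.55% of all WTLPS CTCF peaks. The summit to flank ratios there were 0.463 and 0.462 for WT and WTLPS, and 1.01 and 1.14 for KO and KOLPS. Of these sites, 19.9% had a CTCF peak in unstimulated KO, so the KO values include sites that were not lost there. Of the sites without LPS, 69.6% overlapped one of these, so the 2 sets are not independent.

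H3K4me1 lay at a share near that of CTCF peaks at large, with overlapping intervals between WT and WTLPS. It was called at 30.7% of the sites in WT (29.9 to 31.5%, against 33.0% of all WT CTCF peaks), at 30.01% in WTLPS (29.2 to 30.8%, 32.9%), at 28.7% in KO (27.9 to 29.5%, 32.3%) and at 19.5% in KOLPS (18.9 to 20.2%, 23.2%). Of the 4216 sites marked in WT, 3263 were marked in KO and 678 others gained the mark. The lower KOLPS share stood beside a smaller list, of 79120 peaks against 89884 to 94694 in the other conditions, and a lower coverage, of 2.95 against 3.60 to 4.08. No H3K4me1 peak in any condition was found at 8377 sites (61.0%). H3K4me1 was commoner at weaker CTCF sites, with 39.1% of the weakest and 24.2% of the strongest in WT.

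The sites were also sorted by both methylation marks together. In WT 8455 (61.6%) had neither, 3987 had H3K4me1 alone, 1061 had H3K27me3 alone and 229 had both, which is 29.0, 7.73 and 1.67% for the last 3 classes. Over all WT CTCF peaks the shares were 57.5, 30.9, 9.46 and 2.16% in that order, close to those of the sites. In KO 8270 (60.2%) had neither, 3666 had H3K4me1 alone, 1521 had H3K27me3 alone and 275 had both, against 55.8, 29.3, 11.9 and 2.96% of all peaks. Both classes with H3K27me3 held more in KO than in WT, at the sites and over all peaks.

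H3K27ac was absent from the sites in WT by the rule and was called at few of them in the other conditions. It was called at 648 sites in WTLPS (4.72%, 4.38 to 5.09%, against 11.9% of all WT CTCF peaks), at 460 in KO (3.35%, 3.06 to 3.66%, 10.4%) and at 411 in KOLPS (2.99%, 2.72 to 3.29%, 8.67%). The shares over all peaks include peaks with WT H3K27ac, so lower shares at the sites are partly set by the rule. At lost distal peaks without SMC1 or H3K27ac in WT the shares were 2.20% (WTLPS), 0.947% (KO) and 0.876% (KOLPS), below those of the sites. Sites chosen by the LPS lists, where the rule sets WTLPS to 0, had H3K27ac in WT at 4.60% (4.27 to 4.95%, against 12.1% of all WTLPS CTCF peaks). That is close to the 4.72% seen the other way round, so the WTLPS value cannot be read as a gain under LPS. Of the sites, 12614 (91.9%) had no H3K27ac in any condition and 77 had it in all 3 conditions that the rule left free. H3K27ac appeared in KO at 9.58% (8.73 to 10.5%) of sites with WT H3K4me1 and at 0.588% (0.453 to 0.763%) of those without, and in WTLPS at 12.5% and 1.28%. A WT H3K27ac peak lay within 250 bp of 411 sites, and the coverage of the H3K27ac libraries was 1.17 and 1.20 in control cells and 0.75 and 0.80 in knockout cells, without and with LPS.

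Other factors were scarce. H3K4me3, the promoter mark, was called at 2.26% of the sites in WT (against 11.6% of all WT CTCF peaks), 2.06% in WTLPS (10.7%), 2.01% in KO (11.4%) and 1.40% in KOLPS (9.43%). p65 lay at 2 sites in WT (0.109% of all peaks), at 56 in WTLPS (0.408%, 0.314 to 0.529%, against 0.699%), at 1 in KO (0.0743%) and at 11 in KOLPS (0.0801%, 0.0447 to 0.143%, against 0.259%). STAT5 lay at 102 sites in WT (0.743%, 0.612 to 0.901%, against 1.28%) and at 95 in KO (0.692%, 0.566 to 0.845%, against 1.08%). All WT CTCF peaks include promoter peaks and peaks with WT H3K27ac, which the rule took out. Lower shares at the sites are thus partly set by the rule. Lost distal peaks without SMC1 or H3K27ac had WT H3K4me3 at 1.13%, WTLPS p65 at 0.0330% and WT STAT5 at 0.141%, below the sites. Lost distal peaks with H3K27ac had these at 17.0, 5.51 and 6.92%, above the sites. The p65 lists themselves ran from 504 peaks (KO) through 781 (WT) and 1752 (KOLPS) to 5465 (WTLPS), so the site counts followed the list sizes.

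Single sites show these patterns. The 5 sites of highest CTCF significance had folds of 36.9 in an intron of Chl1 (chr6:103739199-103740279), 36.3 near Pkia (chr3:7330852-7333576), 34.6 in an intron of Gm32061 near Mkrn3 (chr7:62399518-62401164), 34.2 in an intron of Itgae (chr11:73106945-73108239) and 31.3 near Pmp22 (chr11:63164576-63166380). Itgae encodes the integrin CD103 of a subset of dendritic cells, and Mkrn3 is an imprinted gene. In all 5 SMC1 was called in WT and WTLPS and in neither KO condition, with WT folds of 4.84, 4.84, 8.43, 30.3 and 13.1 in that order. The Pkia, Mkrn3 and Itgae sites had a CTCF peak in KOLPS. H3K4me1 was called only at the Itgae site, in WT, WTLPS and KO, and H3K27me3 only at the Pmp22 site, in WTLPS.

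The 5 sites of highest KO SMC1 significance had WT CTCF folds of 4.01, 4.22, 2.99, 7.81 and 9.92 in the order of significance, of which only the last is above the median of the sites. None held the core with at most 1 mismatch. The first, outside genes with the nearest coding start at Rplp1 (chr9:61701779-61702045), had SMC1 folds of 13.7, 15.8, 15.1 and 17.1 (WT, WTLPS, KO, KOLPS). It had H3K4me1 in all 4 conditions and H3K27ac in WTLPS, KO and KOLPS. A site near Sod1 (chr16:90176929-90177703) had SMC1 folds of 17.02, 14.78, 14.04 and 14.2 in the same order. In an intron of Bcl2, which encodes an inhibitor of cell death (chr1:106628219-106629135), SMC1 was called in WT, WTLPS and KO. The remaining sites of this rule were in an exon of Lars2 (chr9:123461912-123462100), where 15 of the 30 lists had a peak, H3K4me3 and H3K27me3 among them in every condition, and outside genes on the Y chromosome (chrY:39911100-39911283). The SMC1 calls at the Lars2 site thus stand beside calls for antibodies against unrelated targets.

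The 5 sites of highest KO H3K27ac significance lay near Psap (chr10:60258810-60259262), near Cebpb (chr2:167712748-167712941), in an intron of Pkn3 (chr2:30087421-30087884), near Akr1a1 (chr4:116665954-116666750) and in an intron of Maea (chr5:33356294-33356812). KO H3K27ac folds were 26.3, 20.8, 18.3, 14.3 and 14.3. All 5 had H3K4me1, in WT at 4 of them. The Psap site is within 200 kb of the start of Chst3, and Cebpb encodes a transcription factor of myeloid cells. An SMC1 peak was called in KO only at the Pkn3 site and in KOLPS only at the Akr1a1 site.

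H3K27me3 was called in all 4 conditions at 214 sites. The 5 of highest CTCF significance lay in exons of Col25a1 (chr3:130572437-130577886), B3gnt6 (chr7:98190230-98192696), Dmrta1 (chr4:89692332-89694983) and Gm5538 (chr3:59743612-59746755) and in an intron of Lonrf2 (chr1:38798269-38800359). Their CTCF folds ran from 23.8 to 27.4. SMC1 was called at each of them in WT and WTLPS and at none in KO or KOLPS, and H3K4me1 only at the B3gnt6 site.

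Loci of interest in these cells held a few sites each. Within 200 kb of the starts of 10 genes that the study examined lay 36 distinct sites among 208 WT CTCF peaks (17.3%, against 22.7% of the whole list), from 1 at Aldh1a2, which makes retinoic acid, to 6 at Il12a, a cytokine subunit gene. WTLPS SMC1 was called at 32 of the 36 and KO SMC1 at 3, of which 2 were near Il1f6, a cytokine gene, and 1 near Ch25h, the cholesterol 25-hydroxylase gene. Il6, another cytokine gene, had 4 sites, all with WTLPS SMC1 and none with KO SMC1, and Il12b likewise had 4.

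Around 10 genes of myeloid transcription factors lay 54 distinct sites among 213 peaks (25.4%), with 11 at Spi1, 10 at Relb and none at Id2. WTLPS SMC1 was called at 46 of the 54 and KO SMC1 at 1, near Irf4. KO H3K27ac was called at 6 of them (11.1%, 5.19 to 22.2%, against 3.35% of all sites and 10.4% of all WT CTCF peaks), 2 each at Irf4 and Cebpb and 1 each at Cebpa and Runx1. No site of this list had H3K27me3 in WT and 2 had it in KO (3.70%, 1.02 to 12.5%, against 13.1% of all sites), near Cebpa and Cebpb. Around 15 inflammatory genes lay 57 distinct sites among 270 peaks (21.1%), with 46 called for SMC1 in WTLPS and 5 in KO. Tnf had 4 sites, and its nearest was 122383 bp away. The shares with KO SMC1, of 8.33% (2.87 to 21.8%), 1.85% (0.328 to 9.77%) and 8.77% (3.81 to 18.9%) in the 3 lists, had overlapping intervals, each of which held the 4.22% of all sites.

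H3K27me3 was frequent near Hox clusters. Among 26 distinct sites near 10 genes of Hox clusters and of imprinted and globin loci known for CTCF insulation, H3K27me3 was called at 12 in WT (46.2%, 28.8 to 64.5%) and at 16 in KO (61.5%, 42.5 to 77.6%), above the 9.39% and 13.1% of all sites. At Hoxa9, a body-plan gene silent in many tissues, 6 of 7 sites had the mark in WT and 6 in KO, at Hoxb4 3 of 6 in WT and 4 in KO, and at Hoxc8 2 of 3 in WT and 3 in KO. Among the others only Grb10 had a site with the mark in WT, while H19, Igf2, Kcnq1ot1, Meg3 and Hoxd10 had sites and none with it in WT. In KO 1 site near both H19 and Igf2 and 1 near Meg3 had the mark, and none near Kcnq1ot1 or Hoxd10. WTLPS SMC1 was called at 24 of the 26 sites and KO SMC1 at 2, near Hoxb4 and Kcnq1ot1. The adult globin gene Hbb-bs had no site within 200 kb.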

How the data were processed

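The 34 samples hold 30 peak lists and 4 inputs, which were not analysed here. Reads were trimmed, aligned to mm10 with bwa, freed of duplicates with picard and given to MACS2; per the submitters' processing notes the versions were BWA 0.7.12, Picard 1.77 and MACS2 2.1.2. The ChIP-seq methods describe calling per biological replicate, and the reporting summary a merging of replicates without naming the assay; the lists name no replicate, so which step they come from is uncertain. The deposited columns used were the fold enrichment, a ratio to local background, and the p-value and q-value on a −log10 scale, all read only within a list. Lists are narrow, except those for H3K27me3 and H3K4me1, which are broad. Peak names of the H3K4me1 lists carry another supplier's mark than the labels, so the antibody is uncertain. The lowest −log10 p was near 7 in the CTCF and SMC1 lists and lower in the histone lists, so a missing peak is a missing call and not absent binding.

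Peaks overlapped when they shared at least 1 bp. A promoter was the 2.5 kb up- and downstream of where the longest transcript of a gene begins, for 55413 genes (GENCODE vM21). Sequence came from RefSeq GRCm38.p6. Shares have 95% Wilson intervals (SciPy 1.17.1); read depth is not in the lists. Coverage is the most frequent background level, in fragments per base, that with a whole number of fragments gives back a peak's fold and −log10 p within 0.002; in broad lists only 4.68 to 17.3% of the weaker peaks could be matched. The overlap and coverage code was tested on simulated data. Named sites were, without places that had a peak in 20 or more lists (0 sites), the 5 of highest −log10 q for WT CTCF, KO SMC1 or KO H3K27ac, and the 5 of highest WT CTCF with H3K27me3 in all 4 conditions, and loci came from given lists. The rule, members and lists were chosen with earlier results of these data known.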

Additional observations from a re-analysis of the deposited data

Results flagged for a closer look

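The H3K27me3 share at the sites moved in opposite directions with the genotype in the 2 stimulation states. KO lay above WT by 3.68 percentage points without LPS, and KOLPS lay at −1.61 percentage points relative to WTLPS, with intervals that did not overlap in either pair. With 1 list for each condition this difference between states was not tested. The KOLPS list was the shortest of the 4, with 26960 peaks and a lowest −log10 p of 3.47, and with the same number of peaks from each list KO was the higher in both states (4.02% in WT and 5.47% in KO, 2.51% in WTLPS and 3.47% in KOLPS). With a common lowest −log10 p KOLPS stayed below WTLPS (4.86% in WTLPS and 3.47% in KOLPS).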

How the results depend on the processing

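Each share was recomputed with 1 choice changed at a time. Of 133 values, 75 moved by less than their own counting interval or kept within 1.5 times, for counts of sites, and 58 moved by more. Promoters of 1 kb and the starts of all transcripts moved none of 15 values each, and leaving out chromosomes X and Y, run for the number of sites only, did not move it. Shares below are in percent and in the order WT, WTLPS, KO, KOLPS, without the conditions that the rule sets or that did not move. With 50% of the CTCF peak covered, SMC1 in WTLPS was 74.6, H3K27ac 3.50, 2.10 and 1.21, H3K4me1 31.9, 32.0, 31.3 and 20.6, and H3K27me3 3.12, 1.36, 6.06 and 1.01. With a −log10 q of at least 10 in the CTCF, SMC1 and H3K27ac lists, SMC1 was 83.2, 1.94 and 0.7999, H3K27ac 1.66, 1.10 and 0.480, H3K4me1 33.9, 33.6, 32.2 and 22.7, and H3K27me3 10.3, 5.60, 15.4 and 4.06. With a window of 250 bp around the summit, SMC1 in KO and KOLPS was 3.85 and 1.68, H3K27ac 3.98, 3.03 and 2.53, H3K4me1 28.1, 27.6, 26.5 and 17.5, and H3K27me3 5.95, 2.98, 10.3 and 2.23. With a common lowest −log10 p over the 4 lists of a mark, H3K4me1 in WT and WTLPS was 28.6 and 28.8, and H3K27me3 in WT and KO 5.88 and 8.08. With the same number of peaks from each list, H3K4me1 was 27.9, 28.2 and 26.4 in WT, WTLPS and KO, H3K27me3 was 4.02, 2.51 and 5.47, and the WT ratio of summit to flanks was 0.572. A calculated thinning to the KOLPS coverage gave WTLPS SMC1 of 71.5. The LPS lists in the rule gave H3K27me3 of 10.1, 5.50 and 14.1 in WT, WTLPS and KO. The core stood at 4.43 without mismatch and at 32.0 within 100 bp. With flanks at 1 kb the summit to flank ratio was 0.595 in WT and 0.601 in WTLPS. The cause of these shifts was not tested. The settings of the summit to flank ratio, and the LPS rule for H3K27me3, were chosen after seeing the data.

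In each setting run for it, KO SMC1 stayed under 5% of the sites, H3K27me3 was more frequent in KO than in WT, and the WT and WTLPS summit to flank ratios stayed below those of KO and KOLPS. The share of KOLPS against WTLPS for H3K27me3 turned with the same number of peaks and not with a common lowest −log10 p. No paired analysis was possible because the labels carry no replicate numbers and no result comes from a test, and with 1 list for each condition no replicate was left out. The lists hold calls above a threshold, so weaker binding in KO cannot be seen.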
